A study of Mus musculus with 10 samples.

Results

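The PI3K, AKT and mTOR signalling genes are a list of 30 genes that carry the insulin and growth factor signal from the receptor to protein synthesis. They were taken by symbol from a deposited table of 18869 mouse gene identifiers, and all 30 were found. The tissue was liver of C57BL/6 mice aged 6 weeks, kept on regular chow and fasted for 15 h before harvest. One genotype was Nrf2Act-hep, described in the labels as activated for Nrf2 in the liver alone (5 libraries, M replicates 6 to 8 and F replicates 9 and 10). The other was wild type (WT, 5 libraries, M replicates 1 and 2 and F replicates 3 to 5). M and F are the last letters of the sample titles. The series title names AKT signalling downstream of NRF2-driven growth factor genes and enlargement of the liver, and the comparison asks whether transcripts of that pathway differed between the genotypes. The allele and the driver of the activation are not in the labels. Nor do they tie each library to a separate animal, and p-values therefore cover only the spread among libraries, which may be technical.

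In this pathway an activated receptor recruits insulin receptor substrates, which bring class I PI3K to the membrane. The lipid it makes recruits AKT and its activating kinase PDK1. AKT then phosphorylates FOXO transcription factors, GSK3 and the TSC complex, and release of the GTPase RHEB from TSC switches on mTOR complex 1, which promotes translation through S6 kinase and the eIF4E-binding proteins. In liver the pathway is known for restraining glucose production and for promoting lipid synthesis and growth after feeding. Most of this signalling is carried by phosphorylation, which transcript counts do not measure.

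Libraries were read at the 3′ end of polyadenylated transcripts, so a transcript gives tags irrespective of its length. Values are CPM (tag counts scaled to a common library total) after TMM scaling, which sets libraries to a common level for most genes. Recovered depth was 2167528 to 2806670 reads in Nrf2Act-hep libraries, against 1267745 to 2287727 in WT libraries, so that 3 reads stood for 1.07 to 1.38 CPM in Nrf2Act-hep and 1.31 to 2.37 CPM in WT. Of 10 NRF2 target genes listed as a check of the model, 9 were higher in Nrf2Act-hep and 0 lower. Over all genes tested 2.79% were called higher. The 9 were Nqo1, Gclc, Srxn1, Txnrd1, Blvrb, Gsta2, Gstm1, Cbr1 and Cbr3, which encode antioxidant and detoxifying enzymes. Gclm, the other gene of the list, did not pass. The list was chosen with earlier results of these data known. Nqo1, Gsta2 and Cbr3 had WT libraries under the 4.50 CPM that testing required in at least 5 libraries. They were tested because of their Nrf2Act-hep values and could be called only as higher. Nqo1, a quinone reductase, averaged 36.9 ± 13.3 CPM in Nrf2Act-hep and 3.35 ± 1.62 CPM in WT (SD, n = 5 each). Hepatocyte markers were abundant in all libraries. Their summed level was 29130 to 37580 CPM in Nrf2Act-hep, against 39530 to 47850 CPM in WT. Of the 5 hepatocyte markers 1 was lower (limma; 2 with DESeq2), Apoa1, an apolipoprotein gene, at 4854 ± 632 CPM in Nrf2Act-hep and 8164 ± 1305 CPM in WT. The share called lower over all genes tested was 1.86%. Alb, the albumin gene and the most abundant of the 5, had a log2 fold change of -0.43 ± 0.14 (SE; limma, adjusted p = 0.080), and its groups overlapped.

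The 300-base promoter windows that RefSeq gives on GRCm38.p6 (250 bases before the start site and 50 from it on) were available for 27 of the 30 genes; Foxo4, Deptor and Eif4ebp1 had no entry. They were searched on both strands for TGACNNNGC, the core of the antioxidant response element that NRF2 binds, and for GTAAACA, a FOXO site. Mtor is shown because its transcript differed between genotypes, and Irs1 and Irs2 because their windows hold the antioxidant core. Capitals mark that core, read here on the opposite strand; the Mtor window held neither motif. The windows lie at chr4:148448332-148448631 (plus strand), chr1:82291390-82291689 (minus strand) and chr8:11008880-11009179 (minus strand).
Mtor: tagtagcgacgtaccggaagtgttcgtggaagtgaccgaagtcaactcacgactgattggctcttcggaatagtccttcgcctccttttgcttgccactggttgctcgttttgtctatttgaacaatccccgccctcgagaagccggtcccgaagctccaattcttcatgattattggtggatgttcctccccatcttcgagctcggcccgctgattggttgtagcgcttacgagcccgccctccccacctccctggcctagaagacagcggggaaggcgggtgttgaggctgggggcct
Irs1: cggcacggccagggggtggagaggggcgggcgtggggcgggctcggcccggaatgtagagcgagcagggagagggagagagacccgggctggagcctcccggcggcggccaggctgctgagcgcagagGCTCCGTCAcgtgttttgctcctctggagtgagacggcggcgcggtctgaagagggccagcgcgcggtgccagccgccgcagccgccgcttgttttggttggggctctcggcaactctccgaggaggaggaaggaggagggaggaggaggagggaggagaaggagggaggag
Irs2: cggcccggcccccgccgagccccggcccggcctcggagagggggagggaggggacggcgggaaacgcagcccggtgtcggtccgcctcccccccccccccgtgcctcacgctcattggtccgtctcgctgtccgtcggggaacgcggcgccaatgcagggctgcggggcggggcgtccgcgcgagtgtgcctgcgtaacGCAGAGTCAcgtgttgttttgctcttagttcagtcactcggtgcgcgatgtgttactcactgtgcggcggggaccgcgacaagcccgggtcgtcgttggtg
The antioxidant core stood in 3 of the 34 windows of these 27 genes, some of which have more than 1 window (Irs1, Irs2 and Rheb hold it), against 12.4% of all 32851 windows. The FOXO letters stood in 1 of the 34, a window of Akt1, against 3.65% of all windows. In Irs1 the match began 122 bases before the start site and in Irs2 51 bases before it, while the Rheb window held 2 matches, at 247 and 103 bases before it. CACGTG, the E-box core, was searched after these matches were seen, and 3 of the 4 matches overlapped it. In all windows 2.40% of the 4424 matches did so. Because the letters were picked with these matches in view, the contrast of the shares is not a test of enrichment. None of the genes with the antioxidant core passed the genotype test.

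**Figure D1:**
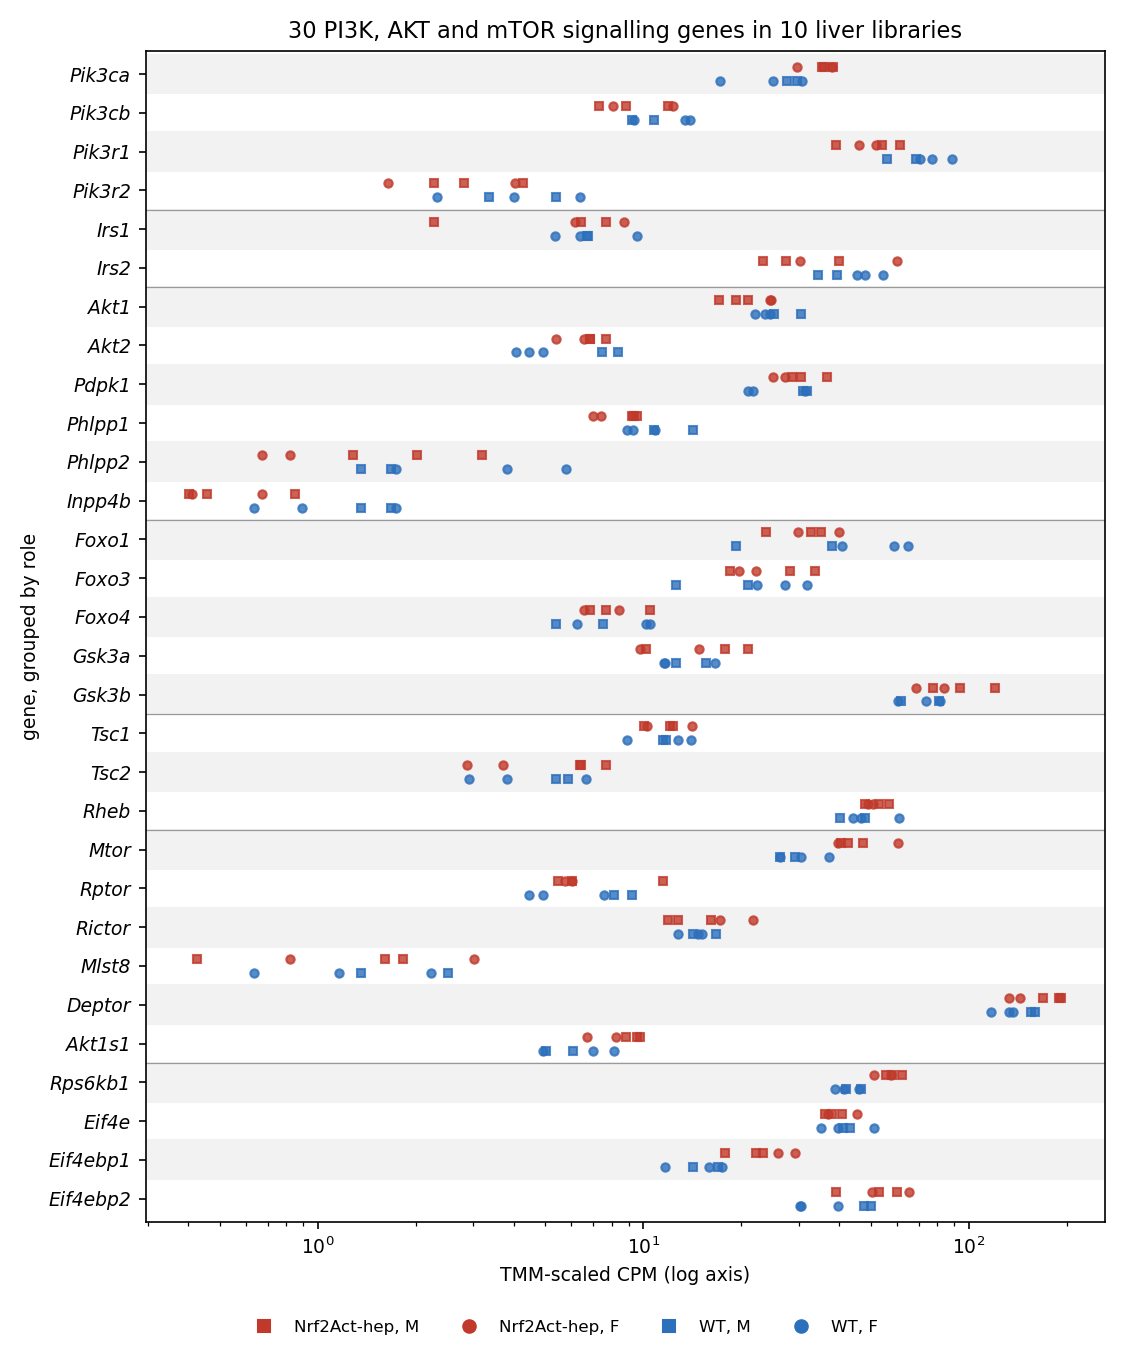
TMM-scaled CPM (x, log axis) of the 30 genes (y, grouped by role from PI3K subunits at the top to translation factors at the bottom) in each of 10 libraries. Red points are Nrf2Act-hep and blue points WT, squares M and circles F. The 2 colours do not overlap for Mtor, Rps6kb1 and Eif4ebp1.

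Levels differed widely within the pathway. Deptor, an inhibitor subunit of both mTOR complexes, had the highest tag level, with a mean of 165.3 ± 26.7 CPM in Nrf2Act-hep and 139.8 ± 17.3 CPM in WT (SD, n = 5 each). Gsk3b, Pik3r1, Rps6kb1 and Rheb followed. A filter of at least 4.50 CPM in at least 5 libraries was passed by 26 genes. The 4 below it were the PI3K regulatory subunit gene Pik3r2, the AKT phosphatase gene Phlpp2, the lipid phosphatase gene Inpp4b and Mlst8, a subunit shared by both mTOR complexes. Among the 26 genes the spread between libraries of one genotype had a median coefficient of variation of 18.3% in Nrf2Act-hep and 18.5% in WT. Counting alone would give medians of 13.2% in Nrf2Act-hep and 16.9% in WT. The observed spread was at or under the counting value for 9 genes in Nrf2Act-hep libraries and for 14 genes in WT libraries.

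The genotype test was limma on log2(CPM + 1) with the title letter as covariate, fitted to 8075 genes and adjusted over all of them at a threshold of 0.05. Of the 26 genes 2 were higher in Nrf2Act-hep, Mtor and Eif4ebp1, where 2.79% of all genes tested were called higher. None was lower (limma, 0 of 26; 1 of 26 at an unadjusted p under 0.05; 1 with edgeR, 1 with limma-voom and 0 with DESeq2), where 1.86% of all genes were called lower and 4.64% were called in either direction. At an unadjusted p under 0.05 there were 6 of the 26 genes, 5 of them higher, and 16.2% of all genes. The median log2 fold change was 0.06 over the 26 genes and 0.01 over all genes tested. The groups did not overlap for 3 genes, all higher in Nrf2Act-hep, where 3.05% of all genes did so in that direction.

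**Figure D2:**
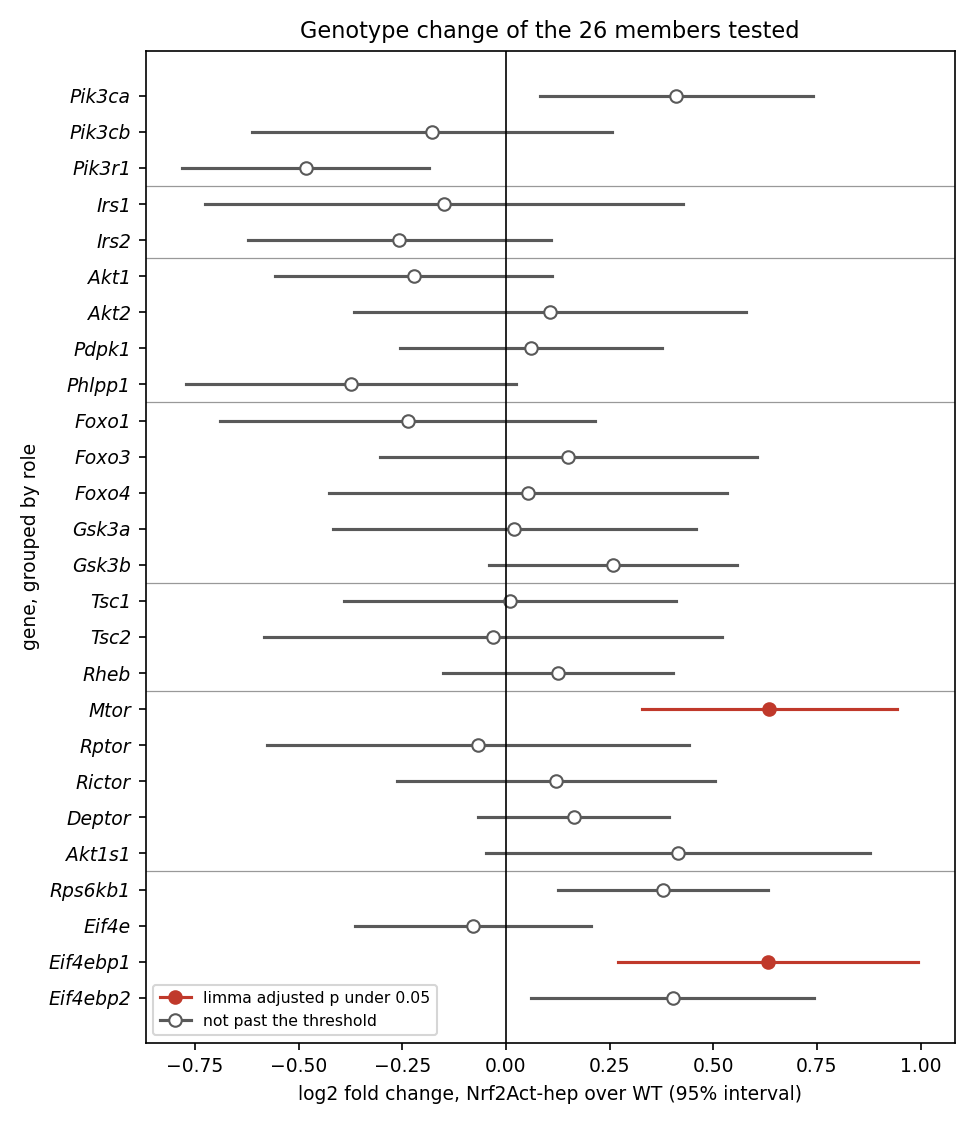
Log2 fold change of Nrf2Act-hep over WT (x) with its 95% limma interval (bars, not adjusted for the number of genes) for the 26 genes tested (y, grouped by role). Filled red points passed the adjusted threshold, which are Mtor and Eif4ebp1, and 20 of the 26 intervals include 0.

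Mtor encodes the kinase at the core of both mTOR complexes. Its 5 Nrf2Act-hep libraries stood at 40.4, 42.6, 47.4, 39.7 and 60.7 CPM (replicates 6 to 10), and its 5 WT libraries at 26.4, 29.3, 30.6, 37.2 and 26.3 CPM (replicates 1 to 5). Every Nrf2Act-hep library was above every WT library, and Nrf2Act-hep replicate 10 was the highest. The log2 fold change was 0.64 ± 0.15 (SE; limma, adjusted p = 0.012; 95% interval of the fold 1.26 to 1.92). Leaving out WT replicate 1 (0.61; limma, adjusted p = 0.052) or Nrf2Act-hep replicate 10 (0.51; limma, adjusted p = 0.088) ended the call, as did fitting either letter alone. The gene (ENSMUSG00000028991) lies on chromosome 4 at 148448611 to 148557683, plus strand, of GRCm38, and no annotated gene overlaps its 3′ end.

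The other subunits of the mTOR complexes did not pass. Rptor, the scaffold of complex 1, averaged 6.96 ± 2.55 CPM in Nrf2Act-hep and 6.84 ± 2.07 CPM in WT (log2 fold change -0.07 ± 0.25, SE). Rictor, the scaffold of complex 2, averaged 15.9 ± 3.92 and 14.7 ± 1.45 CPM in the same order (0.12 ± 0.19). Deptor had a log2 fold change of 0.16 ± 0.11, with an interval of the fold from 0.955 to 1.31. Akt1s1, which encodes the complex 1 inhibitor PRAS40, averaged 8.63 ± 1.23 CPM in Nrf2Act-hep and 6.23 ± 1.37 CPM in WT (0.41 ± 0.22; limma, adjusted p = 0.37). Within libraries the Deptor to Mtor tag ratio was 2.18 to 4.75 in Nrf2Act-hep, against 3.14 to 5.87 in WT, and the ranges overlapped. Mlst8, whose 3′ end overlaps Bricd5 on the opposite strand, had 20 reads in all Nrf2Act-hep libraries together and 13 in all WT libraries. A fit with no filter gave a fold interval of 0.60 to 1.58 for CPM + 1, which understates the range of the fold at so few reads.

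Eif4ebp1 encodes 4E-BP1, which holds the cap-binding factor eIF4E inactive until mTOR complex 1 phosphorylates it. Its Nrf2Act-hep libraries stood at 22.1, 23.3, 17.8, 25.9 and 29.1 CPM (replicates 6 to 10), and its WT libraries at 16.9, 14.2, 15.9, 11.6 and 17.4 CPM (replicates 1 to 5). The groups did not overlap, but the lowest Nrf2Act-hep library (17.8 CPM) was close to the highest WT library (17.4 CPM). The log2 fold change was 0.63 ± 0.17 (SE; limma, adjusted p = 0.037; 95% interval of the fold 1.21 to 1.99). The call was lost with DESeq2 (0.67, adjusted p = 0.064), when the letter was dropped (0.60; limma, adjusted p = 0.0503), and in either letter alone. It was also lost when WT replicates 2, 3 and 4 or Nrf2Act-hep replicates 6, 7, 9 and 10 were left out one at a time (limma, adjusted p = 0.056 to 0.16). The gene (ENSMUSG00000031490) lies on chromosome 8 at 27260329 to 27276674, plus strand, of GRCm38, with no overlapping gene in the annotation.

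The other genes at the translation end of the pathway were Eif4ebp2, Rps6kb1 and Eif4e. Rps6kb1 encodes S6 kinase 1. Its Nrf2Act-hep libraries stood at 62.2, 55.5, 57.9, 51.1 and 57.5 CPM, and its WT libraries at 46.6, 41.8, 45.8, 38.9 and 41.4 CPM. These groups did not overlap either, yet the log2 fold change of 0.38 ± 0.12 (SE) missed the threshold (limma, adjusted p = 0.087; 95% interval of the fold 1.09 to 1.55). On the deposited scale without TMM it passed (0.51; limma, adjusted p = 0.019). That scale moved the median of all genes from 0.01 to 0.13, and relative to that median Rps6kb1 stood at 0.38. The use of strand in counting is not given in the sources used here, and the 3′ end of Rps6kb1 overlaps Rnft1 on the opposite strand. Rnft1 averaged 38.5 ± 4.72 CPM in Nrf2Act-hep and 36.5 ± 4.82 CPM in WT (log2 fold change 0.11 ± 0.14, SE).

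Eif4ebp2 encodes a second eIF4E-binding protein, and its libraries stood at 39.2, 60.3, 52.9, 50.4 and 65.3 CPM in Nrf2Act-hep and at 50.01, 47.7, 30.6, 30.2 and 39.6 CPM in WT. The groups overlapped through Nrf2Act-hep replicate 6, and the log2 fold change of 0.40 ± 0.16 (SE) did not pass (limma, adjusted p = 0.21). Eif4e itself averaged 39.3 ± 3.68 CPM in Nrf2Act-hep and 42.0 ± 5.87 CPM in WT (-0.08 ± 0.14; 95% interval of the fold 0.78 to 1.15). Tags of both binding proteins together per Eif4e tag were 1.62, 2.06, 1.96, 2.06 and 2.09 in Nrf2Act-hep libraries, against 1.55, 1.51, 1.18, 0.82 and 1.62 in WT libraries. All Nrf2Act-hep ratios but that of replicate 6 were above the WT range. The Rps6kb1 to Eif4e ratio was 1.27 to 1.64 in Nrf2Act-hep, against 0.76 to 1.18 in WT, without overlap. Such ratios do not depend on library scaling; they were chosen after the values were seen and were not tested.

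**Figure D3:**
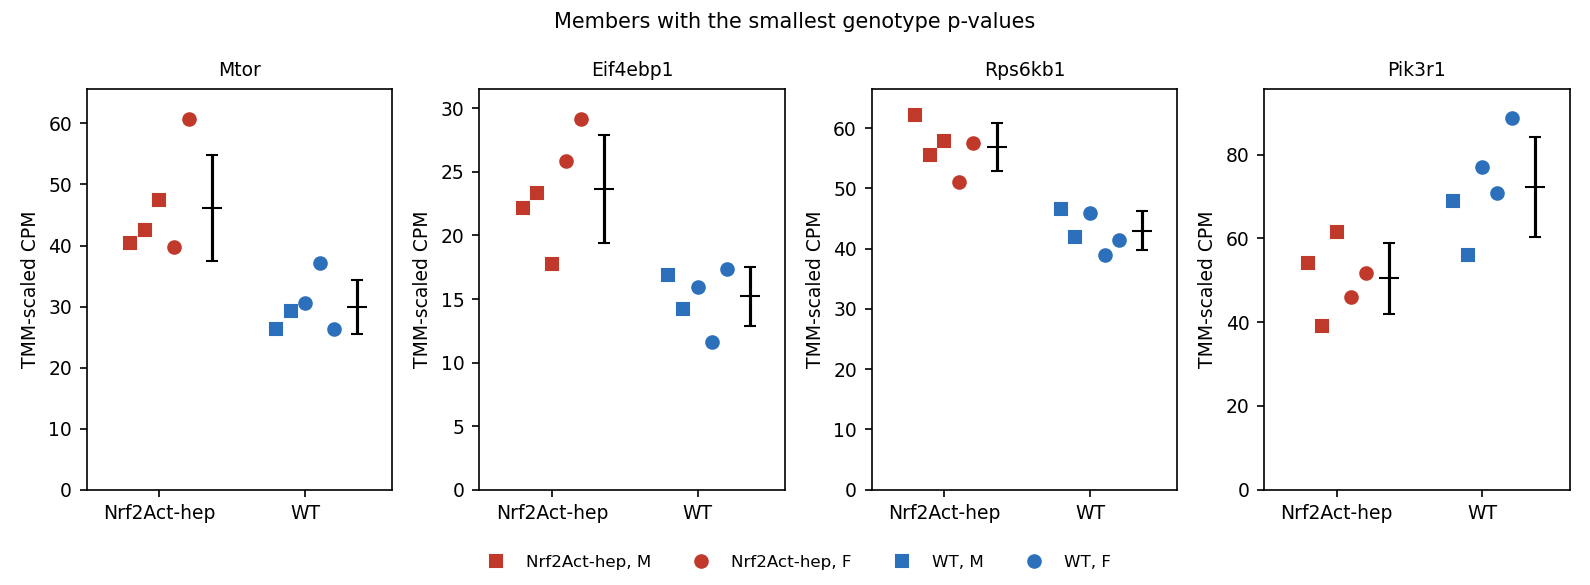
TMM-scaled CPM (y, from 0) of Mtor, Eif4ebp1, Rps6kb1 and Pik3r1 in Nrf2Act-hep (red, left) and WT (blue, right) libraries, with squares for M and circles for F. Black bars give the mean and SD of 5 libraries; the first 3 genes are higher in every Nrf2Act-hep library, and Pik3r1 overlaps.

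At the receptor end, Pik3r1 encodes p85 alpha, the main regulatory subunit of class I PI3K in liver. Its Nrf2Act-hep libraries stood at 54.1, 39.0, 61.5, 46.1 and 51.7 CPM and its WT libraries at 68.9, 56.1, 77.1, 70.8 and 88.6 CPM. The groups overlapped through Nrf2Act-hep replicate 8 and WT replicate 2. The log2 fold change was -0.48 ± 0.14 (SE; limma, adjusted p = 0.057; 95% interval of the fold 0.58 to 0.88). It passed with edgeR (adjusted p = 0.048), limma-voom (adjusted p = 0.043) or when the letter was dropped (limma, adjusted p = 0.046). Leaving out WT replicate 2 (limma, adjusted p = 0.032) or Nrf2Act-hep replicate 8 (limma, adjusted p = 0.025) also brought it past the threshold. On the deposited scale it was -0.35 (limma, adjusted p = 0.16), or -0.48 relative to the median of all genes.

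Pik3ca, the catalytic subunit p110 alpha through which insulin signals in hepatocytes, had a log2 fold change of 0.41 ± 0.16 (SE; limma, adjusted p = 0.18). It averaged 35.4 ± 3.51 CPM in Nrf2Act-hep and 26.05 ± 5.42 CPM in WT, and the ranges met only at Nrf2Act-hep replicate 10 (29.6 CPM), which lay below 2 WT libraries. Pik3cb, which encodes p110 beta, averaged 9.69 ± 2.29 and 11.3 ± 2.22 CPM in the same order (-0.18 ± 0.21). Pik3r1 tags per tag of both catalytic subunits were 1.13, 0.88, 1.35, 1.00 and 1.24 in Nrf2Act-hep libraries, against 1.70, 1.52, 2.52, 1.82 and 2.21 in WT libraries. The highest Nrf2Act-hep ratio was below the lowest WT ratio. This ratio too was chosen after the values were seen and was not tested. Pik3r2, whose 3′ end overlaps 6330537M06Rik on the opposite strand, had 38 reads in all Nrf2Act-hep libraries and 35 in all WT libraries. Its fold interval for CPM + 1 was 0.50 to 1.18 in the fit with no filter.

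**Figure D4:**
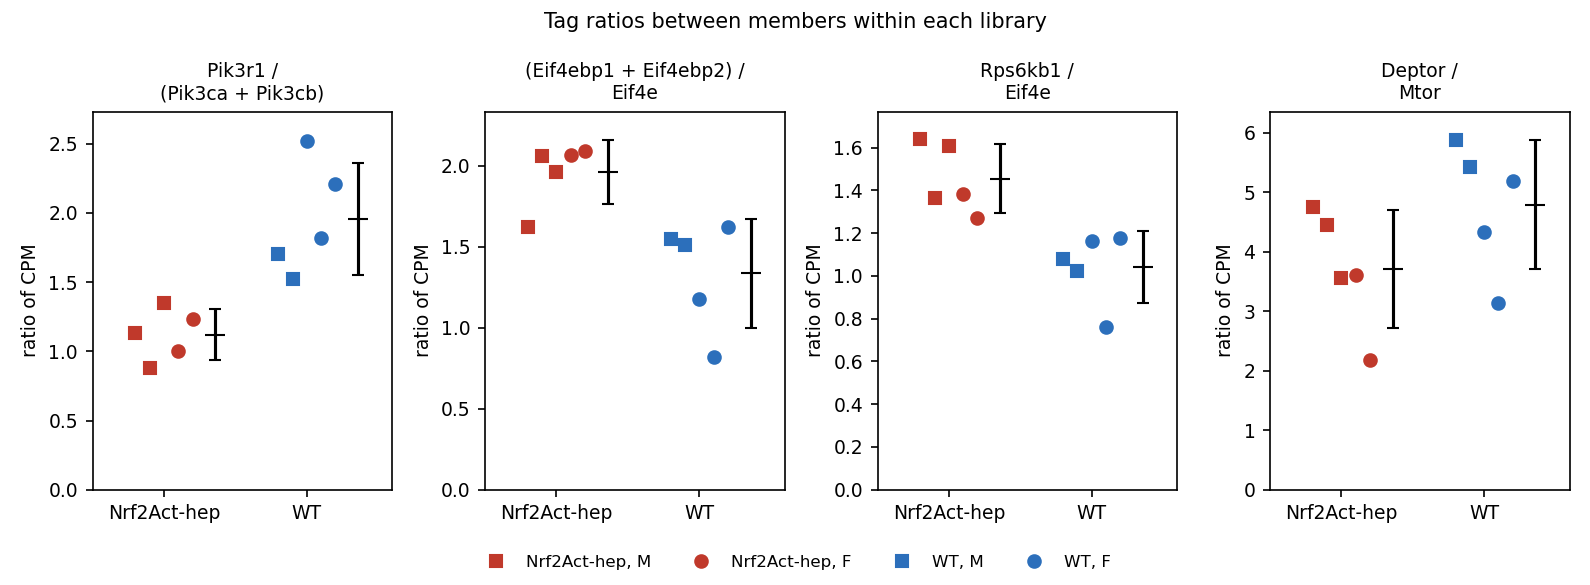
Ratios of CPM between genes within each library (y, from 0) for Nrf2Act-hep (red, left) and WT (blue, right), with squares for M and circles for F. Black bars give mean and SD of 5 libraries; Pik3r1 per catalytic subunit tag is 0.88 to 1.35 in Nrf2Act-hep and 1.52 to 2.52 in WT.

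Neither insulin receptor substrate gene passed. Irs2, which is induced by fasting through FOXO1, ranged from 23.2 to 59.9 CPM in Nrf2Act-hep (median 30.3), against 34.5 to 54.6 CPM in WT (median 45.2). Nrf2Act-hep replicate 10 was the highest of all 10 libraries and the other 4 lay within or below the WT range (log2 fold change -0.26 ± 0.18, SE; limma, adjusted p = 0.51). Irs1, whose 3′ end overlaps Gm9747 on the opposite strand, averaged 6.25 ± 2.45 CPM in Nrf2Act-hep and 6.95 ± 1.56 CPM in WT (-0.15 ± 0.28).

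Of the AKT genes, Akt1 had more tags than Akt2 in every library. Akt2, the isoform tied most closely to insulin action in liver, made up 17.98% to 31.0% of the tags of both genes in Nrf2Act-hep, against 15.6% to 25.0% in WT. Akt1 averaged 21.3 ± 3.32 CPM in Nrf2Act-hep and 25.1 ± 3.17 CPM in WT (log2 fold change -0.22 ± 0.16, SE; 95% interval of the fold 0.68 to 1.08). Akt2 averaged 6.66 ± 0.82 and 5.84 ± 1.93 CPM in the same order (0.11 ± 0.23; interval 0.78 to 1.49). Pdpk1, which encodes PDK1, had a log2 fold change of 0.06 ± 0.15, with an interval of the fold from 0.84 to 1.30. Phlpp1, a phosphatase of AKT, had -0.37 ± 0.19 (limma, adjusted p = 0.34). Its relative Phlpp2 had 19 reads in all Nrf2Act-hep libraries and 26 in all WT libraries. The fold interval of Phlpp2 for CPM + 1 was 0.435 to 1.13 in the fit with no filter. The lipid phosphatase gene Inpp4b had 7 reads in Nrf2Act-hep and 10 in WT, with an interval of 0.436 to 1.10 for CPM + 1. At so few reads these intervals understate the range of the fold.

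Among the AKT substrates none passed (limma, 0 of 5, also 0 at an unadjusted p under 0.05 and 0 with edgeR, DESeq2 or limma-voom). Of all genes tested 4.64% were called in either direction, which in 5 genes amounts to few or no calls. Gsk3b averaged 88.9 ± 19.8 CPM in Nrf2Act-hep and 71.8 ± 10.2 CPM in WT (log2 fold change 0.26 ± 0.14, SE), with its highest value, 120.5 CPM, in Nrf2Act-hep replicate 6. Gsk3a stood at 0.02 ± 0.21, and its 3′ end overlaps 9130221H12Rik on the opposite strand, a transcript at 0.83 ± 0.71 CPM in Nrf2Act-hep and 1.07 ± 0.74 CPM in WT. Foxo1, the factor that drives hepatic glucose production in fasting, ranged from 23.7 to 39.8 CPM in Nrf2Act-hep (median 32.8), against 19.2 to 65.0 CPM in WT (median 40.6). The WT range held the whole Nrf2Act-hep range (-0.24 ± 0.21). Foxo3 (0.15 ± 0.22) and Foxo4 (0.05 ± 0.23) had intervals of the fold from 0.81 to 1.52 and from 0.74 to 1.45.

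The 3 genes of the TSC and RHEB step had a median log2 fold change of 0.01 and none passed (limma; 0 at an unadjusted p under 0.05 and 0 with edgeR, DESeq2 or limma-voom). The share over all genes tested was 4.64% in either direction. Tsc1 averaged 11.8 ± 1.68 CPM in Nrf2Act-hep and 11.8 ± 1.89 CPM in WT (0.01 ± 0.19, SE; 95% interval of the fold 0.76 to 1.33). Tsc2 had -0.03 ± 0.27, and its 3′ end overlaps Pkd1 on the opposite strand, a gene at 3.39 ± 0.75 CPM in Nrf2Act-hep and 3.19 ± 2.63 CPM in WT. Rheb averaged 51.5 ± 3.41 CPM in Nrf2Act-hep and 47.9 ± 7.86 CPM in WT (0.13 ± 0.13; interval 0.90 to 1.32). Over the whole list the SE was 0.11 to 0.28 on the log2 scale, and all 26 intervals lay within a 2-fold change in either direction, 13 of them within 1.5-fold. These are limma intervals on CPM + 1, which are narrow for low genes. With DESeq2 the SE was 0.33 for Akt1s1 and 0.39 for Tsc2, against 0.22 and 0.27 with limma.

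The change was also compared between the letters. Fitted apart, 14 of the 26 genes had log2 fold changes of one sign in F and M libraries and 12 of opposite sign. Mtor stood at 0.64 in F and 0.63 in M, and Rps6kb1 at 0.36 and 0.40. Eif4ebp1 stood at 0.85 in F and 0.41 in M, Eif4ebp2 at 0.77 and 0.03, and Foxo3 at -0.35 and 0.65. In no case did the test of the difference pass after adjustment (limma interaction, 0 of 26, lowest adjusted p = 0.60; 2 of 26 at an unadjusted p under 0.05, Foxo3 and Eif4ebp2; edgeR, 0 of 26), where 0.0248% of all genes tested passed and 7.13% had an unadjusted p under 0.05. None of the 26 passed the test of F against M with genotype in the model (limma, 0 of 26, lowest adjusted p = 0.19; 4 at an unadjusted p under 0.05; edgeR, 0 of 26), where 1.16% of all genes passed and 10.2% had an unadjusted p under 0.05. Deptor had the smallest p of these, -0.35 (F minus M), with 132.6 to 143.6 CPM in F and 169.0 to 192.0 CPM in M libraries of Nrf2Act-hep, and 116.7 to 136.3 CPM in F and 154.7 to 159.0 CPM in M libraries of WT.

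**Figure D5:**
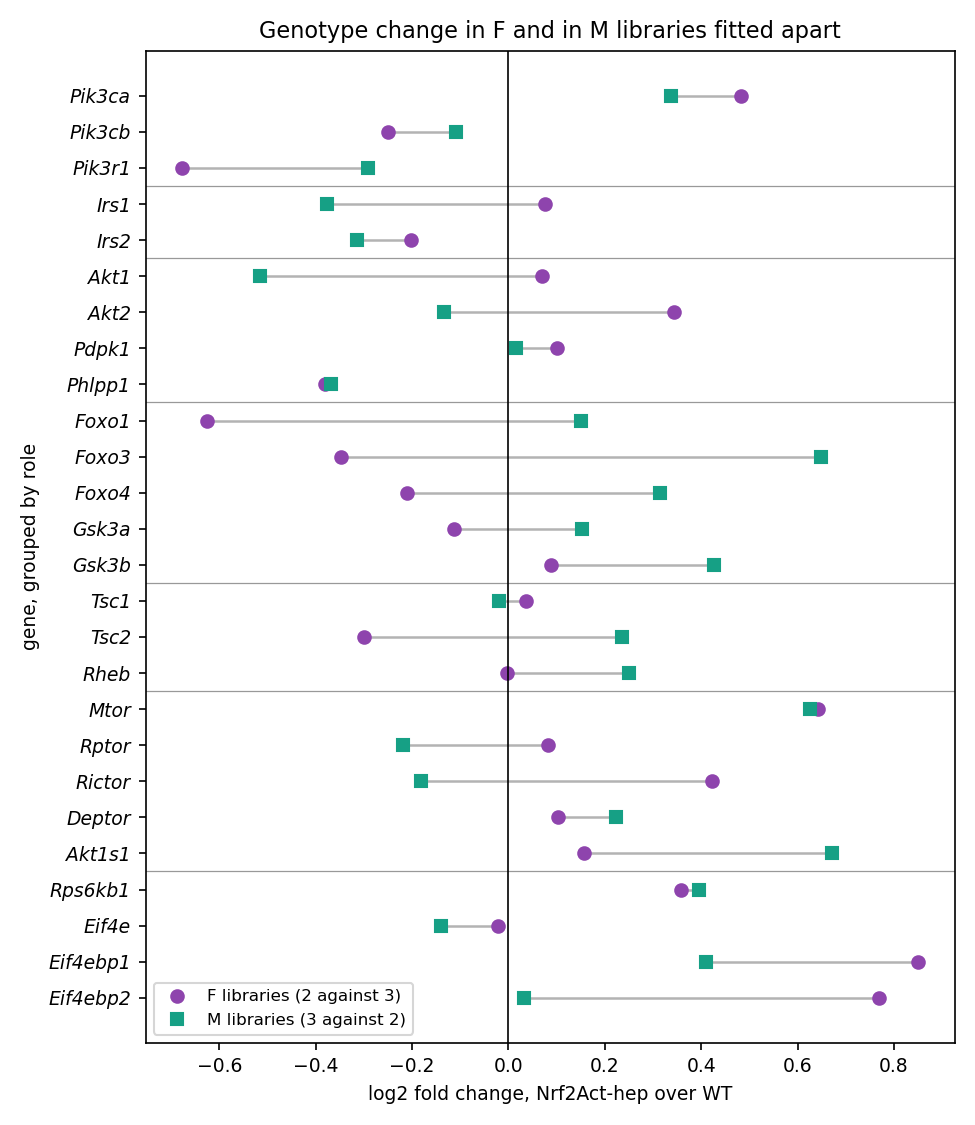
Log2 fold change of Nrf2Act-hep over WT (x) for the 26 genes tested (y, grouped by role), fitted in F libraries (purple circles, 2 against 3) and in M libraries (green squares, 3 against 2). The pair lies close together for Mtor (0.64 and 0.63) and far apart for Foxo3 (-0.35 and 0.65).

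Genes around the pathway were read from 7 further lists, which held 118 genes beside the 30, of which 75 were tested. Of the 75 Me1 alone was higher and 0 were lower, where 2.79% of all genes tested were called higher and 1.86% lower. In lists as short as these, such shares amount to few or no calls. The median log2 fold change of the 75 was 0.01. Upstream receptors and adaptors had 0 called of 10 by limma (2 at an unadjusted p under 0.05; 0 with edgeR, DESeq2 or limma-voom), with Ghr, the growth hormone receptor gene, at -0.01 ± 0.12 (SE) and Egfr, the EGF receptor gene, at -0.27 ± 0.13. Other PI3K subunits, lipid phosphatases and AKT-related kinases had 0 of 10 (1 unadjusted; 0 with the other tools), with Pik3c2a, a class II PI3K gene, at 0.30 ± 0.14. Sgk2, a kinase related to AKT, stood at -0.10 ± 0.19.

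Other mTOR complex and lysosomal amino acid sensing genes had 0 of 19 by limma (2 unadjusted; 0 with edgeR or limma-voom, 1 with DESeq2), with Fnip1, a folliculin partner, at -0.27 ± 0.13 (SE) and the Rag GTPase gene Rragc at 0.11 ± 0.13. The gene called with DESeq2 was Ddit4, which encodes REDD1, an inhibitor of mTOR complex 1 induced by stress and fasting. It is named after its values were seen. Its Nrf2Act-hep libraries stood at 23.8, 37.8, 16.9, 22.5 and 81.3 CPM, against 3.38, 2.51, 26.1, 3.48 and 26.3 CPM in WT libraries. WT replicates 3 and 5, both F libraries, lay within the Nrf2Act-hep range and the other 3 WT libraries far below it. The log2 fold change was 2.14 ± 0.65 (SE; limma, adjusted p = 0.15, and adjusted p = 0.030 with DESeq2). In M libraries alone Ddit4 passed (2.72; limma, adjusted p = 1.6e-05). The difference of its changes, F minus M, was -1.16 and did not pass (limma interaction, adjusted p = 0.92).

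Translation factors downstream of mTOR complex 1 had 0 of 12 (limma; 1 unadjusted, 0 with the other tools), with the elongation factor gene Eef2 at -0.14 ± 0.12 (SE) and the eIF4G1 gene Eif4g1 at -0.10 ± 0.13. FOXO targets in liver had 0 of 12 (limma; 1 unadjusted, 0 with the other tools). Pck1, which encodes the gluconeogenic enzyme PEPCK, averaged 1821 ± 340 CPM in Nrf2Act-hep and 1494 ± 255 CPM in WT (0.26 ± 0.15), and Apoc3 stood at 0.14 ± 0.13. G6pc, the glucose-6-phosphatase gene, averaged 222.0 ± 110.8 CPM in Nrf2Act-hep and 341.5 ± 125.0 CPM in WT (-0.51 ± 0.17; limma, adjusted p = 0.13). It is named because it passed in M libraries alone (-0.76; limma, adjusted p = 0.011). It also passed without Nrf2Act-hep replicate 10 (-0.68; limma, adjusted p = 0.022) and without WT replicate 5 (-0.61; limma, adjusted p = 0.035).

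Insulin-induced lipogenic genes had 1 higher of 8 by limma, and 1 each with edgeR, DESeq2 and limma-voom. At an unadjusted limma p under 0.05 there were 3 of the 8, and 16.2% of all genes tested. The gene called was Me1, the malic enzyme gene, at 97.2 ± 14.7 CPM in Nrf2Act-hep and 67.3 ± 10.5 CPM in WT (log2 fold change 0.56 ± 0.13, SE; limma, adjusted p = 0.012). Me1 is also a known NRF2 target. Leaving out Nrf2Act-hep replicate 10 ended its call (0.47; limma, adjusted p = 0.074). Of this list 2 genes had fold changes above 0, the median was -0.16, and Scd1, the fatty acid desaturase gene, stood at -0.75 ± 0.43. ATF4 targets had 0 of 4 tested (limma; 0 unadjusted and 0 with the other tools), with Atf4 at -0.19 ± 0.19 and Shmt2 at 0.20 ± 0.14.

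In whole tissue, fewer cells of a type and less RNA per cell cannot be told apart. Among macrophage, endothelial, stellate, cholangiocyte, lymphocyte and erythroid markers 23 were tested and 0 were called (limma; 3 at an unadjusted p under 0.05; 0 with edgeR or limma-voom, 1 with DESeq2). Of all genes tested 4.64% were called in either direction and 16.2% had an unadjusted p under 0.05. The most abundant tested genes of these lists were Cd5l and Vsig4, Lyve1 and Kdr, Dcn and Reln, Spp1 and Sox9, Ptprc, and Hbb-bs and Hba-a1, with log2 fold changes between -0.41 and 0.06. The 3 genes at an unadjusted limma p under 0.05 were the macrophage gene Marco and the stellate genes Col1a1 and Lrat. They stood at -1.17 ± 0.38, -0.92 ± 0.39 and 0.45 ± 0.19 (SE) in that order, and are named after their values were seen. The 1 gene called with DESeq2 was a macrophage marker. Summed levels of the lists overlapped between genotypes, for example 148.4 to 220.6 CPM in Nrf2Act-hep and 185.8 to 233.8 CPM in WT for 7 macrophage markers, and 232.0 to 274.2 CPM against 215.9 to 311.4 CPM in the same order for 6 endothelial markers. The stellate sum was 315.8 to 442.5 CPM in Nrf2Act-hep and 332.2 to 498.4 CPM in WT, the cholangiocyte sum 27.9 to 61.1 and 32.5 to 72.0 CPM, the lymphocyte sum 8.44 to 18.2 and 7.64 to 18.3 CPM, and the erythroid sum 314.4 to 702.6 and 413.4 to 671.8 CPM in the same order. The hepatocyte marker sum did not overlap, being lower in Nrf2Act-hep, beside the higher Mtor and Eif4ebp1. Most of that sum is Alb and Apoa1, of which only Apoa1 passed by limma. Alb (-0.43 ± 0.14), Ttr (-0.13 ± 0.13), Hnf4a (-0.09 ± 0.12) and Cyp2e1 (0.13 ± 0.14) overlapped between genotypes and did not pass by limma. The part of these markers in the differences of Mtor and Eif4ebp1 was not tested.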

How the data were processed

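The 10 libraries were made from total liver RNA with the Lexogen QuantSeq 3′ FWD kit and sequenced as single reads of 75 bases, per the labels' protocols. The authors deposited 1 table of CPM values for 18869 gene identifiers; per the submitters' processing notes the build was GRCm38. Not given in the sources used here are the aligner, the counter, its annotation and whether strand was used. All values (100%) were whole multiples of the smallest value above 0 in their column, within 0.01 read, so the reads behind them were recovered. Of the identifiers 18799 matched a GENCODE symbol, and gene coordinates are those of GENCODE M21 on GRCm38.

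Genes with at least 4.50 CPM (10 reads at the median depth) in at least 5 libraries were kept, which left 8075. TMM factors came from edgeR 4.0.16. The test was limma 3.58.1 in R 4.3.3 with a variance trend and robust moderation on log2(CPM + 1), with the letter as covariate and Benjamini-Hochberg adjustment over all genes kept. Fold changes on this scale understate the change of low genes, and intervals of the fold are those of CPM + 1. Genes below the filter were read from the same fit with no filter. Further fits carried the interaction of genotype and letter. edgeR's quasi-likelihood test, DESeq2 1.42.0 and limma-voom were run on the recovered reads as alternatives. Alternatives were other pseudocounts (0.5 and 4), filters, scalings and tools, no letter term, each letter alone and each library left out; for the genes below the filter these were added after the data were seen.

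The members, lists and tests were chosen with earlier results of these data known. Named were all 30 genes and, of each other list, every gene past the threshold or, where fewer than 2 passed, the 2 tested genes with the highest mean (1 for lymphocytes, where 1 was tested); others are said to have been named after their values were seen. Counting error is Poisson error of reads, which are not unique molecules.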

Additional observations from a re-analysis of the deposited data

Results flagged for a closer look

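A library of a group of 5 was set apart where its gap to the nearest other library exceeded 0.71 of the group's range, the Dixon limit at which chance marks about 1 in 20 groups. Of 106 groups 5 were marked. In Nrf2Act-hep, Rptor stood at 11.5 CPM in replicate 6, against 5.47 to 6.05 CPM in the other libraries (gap 0.903 of the range), and Sgk2 at 77.5 CPM in replicate 8, against 53.5 to 60.3 CPM (0.715). Gsta2 stood at 31.2 CPM in Nrf2Act-hep replicate 10, against 60.7 to 70.3 CPM (0.755). In WT, Pik3c2a stood at 64.4 CPM in replicate 2, against 46.5 to 49.4 CPM (0.834), and Cbr3 at 0.68 CPM in replicate 1, while it was listed at 0 in the other 4 (1). The 0.68 CPM of Cbr3 was 1 read.

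The log2 fold change of Akt1 was -0.52 in M libraries and 0.07 in F libraries and passed in neither (limma, adjusted p = 0.28 in M and 0.95 in F). It was marked because its signs differ and the groups do not overlap in either letter. Akt1 was 17.0 to 21.0 CPM in M Nrf2Act-hep libraries, against 25.1 and 30.4 CPM in M WT libraries, and 24.5 and 24.6 CPM in F Nrf2Act-hep libraries, against 22.1 to 24.5 CPM in F WT libraries. The log2 difference of the changes, F minus M, was 0.59 and did not pass (limma, adjusted p = 0.74).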

How the results depend on the processing

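No paired analysis was possible because the replicate numbers of the titles run from 1 to 10 without repeats. The number of the 26 genes called higher was 2 in the main result, 3 on the deposited scale without TMM (Rps6kb1 added), 1 with DESeq2, 1 with no letter term, 0 in M or F libraries alone, and 0 to 2 over the fits without 1 library. Of all 8075 genes tested 225 were called higher in the main result and 384 on the deposited scale. The number called lower was 0 in the main result, 1 (Pik3r1) with edgeR, limma-voom or the letter dropped, and 0 to 1 without 1 library. In the other pathway lists the number higher was 1, but 2 with DESeq2 (Me1 and Ddit4) and 0 in F libraries alone, with 0 to 1 without 1 library. In M libraries alone Ddit4 was the gene called higher there and G6pc the gene called lower (1); the number lower was 0 to 1 without 1 library. Fits with fewer libraries test fewer samples; for the other settings the cause was not tested. Over all settings but those of 1 letter or without 1 library, Mtor kept its call. Leaving out Nrf2Act-hep replicate 10 ended the calls of Mtor, Eif4ebp1 and Me1 alike. No result called in either fit changed sign. Genes under about 5 CPM rest on a few reads per library, which limits what can be seen there.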
